A study of Mus musculus with 13 samples.

Results

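Retained introns of at most 500 nt were followed in the cerebellum of C57BL/6 mice that lack Sam68 (gene Khdrbs1) and of wild-type (WT) mice during the first postnatal month. An intron was included when at most 500 nt long, covered by 10 or more junction reads in at least 4 libraries, and on average 5 to 95% retained over those libraries. The level of retention is given as PSI, the percentage of junction reads that come from transcripts in which the intron is kept. Of 283765 splicing events in the deposited table, 159439 were introns, and 42432 of these were at most 500 nt long. Enough reads were present for 32385 short introns, and 8299 of them (25.6%), in 3708 host genes, lay within the PSI bounds. Mean PSI chose these introns, so their level is a description, whereas differences between groups were tested. An intron can meet the lower bound only through a group in which it is high, and a test of that group is then not independent of the choice.

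The RNA-seq libraries fell into 5 groups: 3 knockout (KO) libraries at postnatal day 1 (P1), 2 WT libraries at P1, 3 KO libraries at P10, 2 WT libraries at P10 and 3 WT libraries at P30. The labels give cerebella as the tissue, with no word on how the knockout allele was made or on pooling of animals, and no KO library at P30 was analysed here. The study's design text gives other numbers of libraries per genotype than the sample labels; the labels were followed. Khdrbs1 had 5.42, 4.22 and 8.50 cRPKM (reads scaled to mappable transcript length and library size) in KO P1 libraries, against 56.5 and 74.4 cRPKM in WT P1 libraries. At P10 it had 2.06, 1.28 and 3.59 cRPKM in KO libraries, against 61.2 and 56.2 cRPKM in WT libraries. The genotypes did not overlap at either age (log2 difference -3.27, adjusted p = 0.00112 at P1 and -4.23, adjusted p = 0.000192 at P10, limma), so the gene's level went with the labels. Whether the libraries within a group are from different animals is not stated in the labels, so p-values measure the spread between these libraries only. Each library held 627648 to 1142225 junction reads on the retained short introns, with a median of 39 to 74 reads per intron. The KO P1 library numbered 15 listed 884 of 3656 host genes at 0 cRPKM, and 457 of these were at 1 cRPKM or more in both other KO P1 libraries; the other 12 libraries had 0 to 165 such genes.

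Most introns are removed while the transcript is still being made, but some remain in a share of the polyadenylated RNA. Transcripts that keep an intron are often held in the nucleus, or carry a stop codon that exposes them to nonsense-mediated decay. Sam68 is a KH-domain RNA-binding protein of the STAR family that binds A/U-rich motifs and is known in the cerebellum for its part in the splicing of neurexin pre-mRNAs. In this tissue the first postnatal weeks are the period in which granule cell precursors divide and then leave the cell cycle, and in which oligodendrocytes form myelin.

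The 6 introns below carry the main patterns, and each is shown with 10 exon bases on either side. Capitals mark the first 6 and the last 3 bases of the intron, where the splice sites lie. The sequences are from GENCODE transcripts of build GRCm38 that keep the intron. From Kif22 they show the 91 nt intron 3 of 13 (chr7:127034033-127034123, minus strand) and the 126 nt intron 6 of 13 (chr7:127033036-127033161, minus strand). Kif15 is represented by its 176 nt intron 33 of 34 (chr9:123017411-123017586, plus strand). These 3 introns were highest at P30 in genes of dividing cells.
Kif22 91 nt: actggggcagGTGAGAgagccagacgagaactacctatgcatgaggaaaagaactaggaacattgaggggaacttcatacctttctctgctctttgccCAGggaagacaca
Kif22 126 nt: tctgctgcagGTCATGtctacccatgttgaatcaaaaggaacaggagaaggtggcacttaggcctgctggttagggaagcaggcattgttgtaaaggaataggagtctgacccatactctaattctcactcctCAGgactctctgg
Kif15 176 nt: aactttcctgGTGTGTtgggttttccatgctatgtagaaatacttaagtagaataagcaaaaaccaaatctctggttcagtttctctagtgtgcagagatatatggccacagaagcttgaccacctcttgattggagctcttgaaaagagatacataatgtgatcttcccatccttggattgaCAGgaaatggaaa
The 109 nt intron 10 of 12 of Pcbp4 (chr9:106462253-106462361, plus strand) is shown because it was deeply read and its host gene's level was not called changed. The 132 nt intron 11 of 11 of Exosc9 (chr3:36565297-36565428, plus strand) overlaps an exon of another gene on the opposite strand. The 88 nt intron 6 of 14 of Idua (chr5:108680207-108680294, plus strand) had one of the smallest p-values between KO and WT.
Pcbp4 109 nt: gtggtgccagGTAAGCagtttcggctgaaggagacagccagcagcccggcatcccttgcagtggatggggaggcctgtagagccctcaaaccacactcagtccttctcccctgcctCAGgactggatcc
Exosc9 132 nt: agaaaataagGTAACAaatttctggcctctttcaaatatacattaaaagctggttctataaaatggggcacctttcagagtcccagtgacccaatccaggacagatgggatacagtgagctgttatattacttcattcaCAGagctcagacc
Idua 88 nt: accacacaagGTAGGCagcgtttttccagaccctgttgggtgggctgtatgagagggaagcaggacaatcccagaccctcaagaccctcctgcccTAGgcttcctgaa

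Retention was low in most of the 8299 introns. Their median of mean PSI was 12.01; 3405 introns (41.0%) lay between PSI 5 and 10, 4183 between 10 and 50, and 711 (8.57%) above 50. A further 23909 short introns with enough reads were below PSI 5, and 177 were above 95. The introns were 57 to 500 nt long, with a median of 201 nt, against 189 nt for the short introns below PSI 5. In steps of 100 nt, from the shortest to the longest, the share retained was 25.8, 23.8, 28.5, 26.9 and 24.0%, so it did not run in order with length. Of introns over 500 nt with enough reads, 18.4% were within the same PSI bounds, with a median of mean PSI of 10.9. At the lower bound, an intron of Rbms2 was inside at a mean PSI of 5, and introns of Gatsl3 and Clcn2 outside at 4.998 and 4.9975. At the upper bound, an intron of Mettl5, whose plain junction reads differ from its deposited PSI, was inside at 94.98 and a 100 nt intron of Serinc4 outside at 95.3. At the length bound, 10 introns of 500 nt were inside and 16 of 501 nt that met the other conditions were outside.

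Of the 8299 introns, 7092 had a value in every group and 5451 were at PSI 5 or more in every group with a value; the other 2848 were below 5 in at least 1 group. Below PSI 5 were 1122 introns in KO P1, 1229 in WT P1, 607 in KO P10, 714 in WT P10 and 1087 in WT P30. In 6112 introns with 10 or more reads in all 13 libraries, the library medians were 8.40, 12.2 and 11.5 in KO P1, 10.2 and 10.6 in WT P1, 11.4, 9.40 and 14.8 in KO P10, 9.82 and 13.8 in WT P10, and 7.77, 15.6 and 11.1 in WT P30. The group means, in the same order, were 10.7 ± 2.01, 10.4 ± 0.308, 11.9 ± 2.73, 11.8 ± 2.80 and 11.5 ± 3.93 (SD, n = 3, 2, 3, 2 and 3). In all groups but WT P1, the libraries spread more widely than the 5 group means. Between the extreme WT P30 libraries, 86.6% of these introns had the higher PSI in library 2 than in library 1. Introns over 500 nt placed the libraries in nearly the same order, with 7 of 13 ranks equal and the others at most 2 ranks apart.

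**Figure D1:**
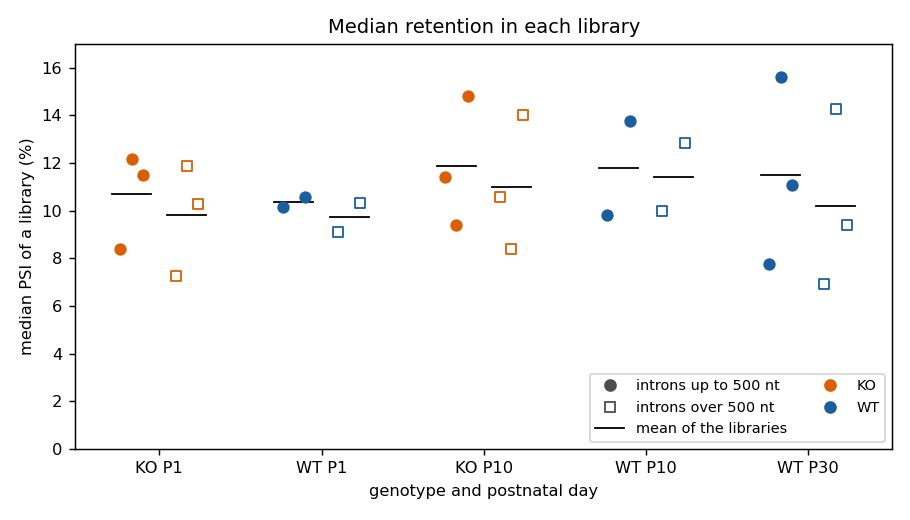
Median PSI of each library (y axis, %) in the 5 groups (x axis), for short introns (filled circles) and for introns over 500 nt (open squares) with 10 or more reads in every library; bars are the mean of the libraries of a group. WT P30 libraries run from 7.77 to 15.6, a range that covers the medians of all other groups.

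Some genes had several retained short introns. Genes with more measured short introns can hold more retained ones, and the counts over genes were not set against that. Of the 3708 host genes, 1736 had 2 or more retained short introns, which held 6327 of the 8299 introns, and 52 had 10 or more. In Ap1g2, a subunit of an adaptor complex of vesicle coats, all 19 short introns with enough reads were retained, with a median of mean PSI of 42.5 and a range of 14.8 to 89.1. All 18 of Mamdc4 were retained, with a median of 64.7. Both hosts were little expressed: Ap1g2 averaged 2.10 ± 0.358 cRPKM in WT P30 libraries (SD, n = 3) and Mamdc4 0.463 ± 0.215 cRPKM. Cdan1, the gene mutated in a congenital dyserythropoietic anaemia, had 17 of 23 retained at a median of 13.7, Tenc1 16 of 23 at 9.55, and Wdr90 16 of 35 at 14.9. Across all hosts the median expression was 9.09 cRPKM, against 14.1 cRPKM for 4313 genes whose measured short introns all lay below PSI 5.

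The highest levels in all 13 libraries often came with an overlapping gene or with reads on only 1 side of the intron. In Taz, which encodes the cardiolipin-remodelling enzyme tafazzin, the 228 nt intron was at PSI 93.4 to 97.2 in WT P30 libraries and 100 in both WT P1 libraries, but almost all its exon-intron reads lay on the upstream junction (47, 119 and 90 against 2, 2 and 2 downstream in WT P30). The 312 nt intron of Abl2, a tyrosine kinase gene, showed the opposite imbalance, with 141, 116 and 69 downstream reads against 9, 17 and 13 upstream reads in WT P30. A 238 nt intron of Serinc4 was at PSI 100 in all 3 WT P30 libraries and lies opposite an exon of Hypk. The table's own test for balance between the exon-intron junctions was below 0.05 in 2 or more libraries for 1816 of the 8299 introns; its definition is not given in the sources used here.

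Loss of Sam68 was compared within P1 and within P10. An intron was called changed when the adjusted p of limma on the log2 odds of retention was below 0.05, the PSI differed by 10 points or more, and both differences had the same sign. No retained short intron was called at P1 (0 of 7013 tested; 0% of all events tested), where 234 had an unadjusted p under 0.05 and the smallest adjusted p was 0.499. None was called at P10 either (0 of 7360; 0% of all events), where 240 had an unadjusted p under 0.05 and the smallest adjusted p was 0.156. The median PSI difference, KO minus WT, was 0.227 points at P1 (quartiles -2.21 and 2.64) and -0.0283 points at P10 (quartiles -3.09 and 2.89). Library values of the genotypes did not overlap in 1240 introns at P1 and 1264 at P10, where 19.3% and 18.2% of all events did not overlap. With 3 against 2 libraries these tests recover few changes of moderate size, so the counts of 0 do not show equal retention.

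Among the introns with the smallest p-values between KO and WT, that of Idua rested on few exon-exon reads. Idua, encoding the lysosomal enzyme alpha-L-iduronidase, had PSI 84.6, 86.7 and 75 in KO P1 libraries, against 41.2 and 51.5 in WT P1 libraries. Those values rest on 1, 1 and 3 exon-exon reads in KO and 5 and 8 in WT, and the difference did not pass (adjusted p = 0.577). The 390 nt intron of Hdac10, a deacetylase gene, had PSI 57.9, 75 and 60.0 in KO P1 libraries, against 88.9 and 100 in WT P1 libraries (adjusted p = 0.499). In Rec8, a meiotic cohesin gene, a 286 nt intron had 28.6, 14.3 and 13.04 in KO P1 libraries, against 3.70 and 2.70 in WT P1 libraries (adjusted p = 0.579). The genotypes did not overlap in any of these 3 introns, but all failed the correction.

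At P10 the smallest p belonged to a 404 nt intron of Pdzd7, a gene of the stereocilia of hair cells. Its PSI was 71.4, 69.2 and 91.1 in KO P10 libraries, against 100 and 100 in WT P10 libraries. WT P10 had 0 exon-exon reads among 65 junction reads, which allows exon-exon reads to be up to 4.62% of the junction reads. Limits of this kind cover counting error only. They count the reads of both exon-intron junctions, whereas PSI rests on the mean of these junctions, so they are not limits on PSI. In Cept1, a phospholipid synthesis gene, a 412 nt intron had 20, 19.3 and 9.09 in KO P10 libraries, against 1.59 and 2.13 in WT P10 libraries. Neither passed (adjusted p = 0.156 for Pdzd7 and 0.376 for Cept1). The test of whether the genotype difference changed between P10 and P1 called 0 of 6693 introns (0% of all events), with 167 at an unadjusted p under 0.05 and the smallest adjusted p at 1. Of 3545 host genes tested on log2(cRPKM + 1), 0 were called between KO and WT at P1 (185 at an unadjusted p under 0.05; 0.0356% of all genes called, 0.00711% higher and 0.0284% lower) and 0 at P10 (151; 0.00711% of all genes called). Khdrbs1 itself is not among the host genes.

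The comparisons between ages gave many more calls. Between WT P30 and WT P1, 446 of 6563 retained short introns were called, 277 higher and 169 lower at P30. That is 6.80% of those tested. Of all splicing events tested, which had a mean PSI of 5 to 95 as well, 9% were called, 5.52% higher and 3.48% lower. The median PSI difference was 0.688 points, against 0.896 points over all events. All 446 had non-overlapping library values, as did 2544 of all those tested; 45.1% of all events did not overlap. The calls fell in 359 host genes, and 55 genes had 2 or more called introns, which in 54 of the 55 moved in the same direction. The count rests on single libraries: it was 160 without WT P1 library 8, 167 without WT P1 library 9, 259 without WT P30 library 2 and 240 without WT P30 library 3, of which 136, 143, 238 and 227 were among the 446.

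Many of the largest rises between WT P30 and WT P1 lay in genes of dividing cells, and the hosts named next fell as well. Kif22, a chromosome-binding kinesin of mitosis, had 8 retained short introns, and 4 were among the 10 largest rises of a comparison. Its 126 nt intron, printed above, was at PSI 100, 100 and 100 in WT P30 libraries, against 14.8 and 13.1 in WT P1 libraries (adjusted p = 7.31e-06). WT P30 had 0 exon-exon reads among 107 junction reads, which allows exon-exon reads to be up to 2.80% of the junction reads. The fitted log odds of such an intron depend on the 0.5 reads added. The intron's PSI in the other groups was 10.3, 25 and 8.53 in KO P1, 19.6, 16.9 and 26.8 in KO P10, and 23.9 and 21.5 in WT P10, so the WT P30 libraries stood apart from all 10 others. Its 91 nt intron had 100, 85.7 and 85.7 in WT P30 libraries, against 1.46 and 1.07 in WT P1 libraries (adjusted p = 9.7e-05). Its means were 1.39 in KO P1, 1.27 in WT P1, 4.91 in KO P10 and 4.15 in WT P10. This intron therefore met the PSI bound of 5 only through WT P30, and its p-value is not independent of that choice. The 117 nt intron had means of 1.87, 0.86, 4.35 and 7.41 in the same groups, so its p-value has a like limit. The 117 nt intron had 80.0, 93.3 and 100 against 1.10 and 0.62 (adjusted p = 0.000105), and the 199 nt intron 80.7, 95.4 and 86.0 against 8.33 and 3.27 (adjusted p = 0.000962), both as WT P30 against WT P1. Host expression was low at P30, where Kif22 had 0.45, 0.61 and 1.80 cRPKM in WT P30 libraries, against 7.41 and 13.3 cRPKM in WT P1 libraries (log2 difference -2.55, adjusted p = 0.000426). The exon-intron reads of Kif22 were not fewer: the 126 nt intron had 7, 19 and 25 upstream and 10, 20 and 26 downstream exon-intron reads in WT P30, against 2 and 7 upstream and 6 and 9 downstream in WT P1.

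Kif15, a kinesin of the mitotic spindle, followed the same course. The 176 nt intron had PSI 100, 95.2 and 100 in WT P30 libraries, against 20.6 and 10.5 in WT P1 libraries (adjusted p = 1.83e-05), and the last intron of Kif15, of 349 nt, had 100, 86.7 and 100 against 21.7 and 16.9 (adjusted p = 0.000208). Kif15 was at 0.10, 0.78 and 0.14 cRPKM in WT P30 libraries, against 4.50 and 9 cRPKM in WT P1 libraries (log2 difference -2.50). Igf2bp3, an RNA-binding protein gene of fetal tissue, moved earlier. Its 327 nt intron had PSI 18.9 and 17.3 in WT P1, 73.9 and 51.4 in WT P10 and 90.5, 100 and 97.1 in WT P30 libraries, without overlap between ages (adjusted p = 0.000923 for P30 against P1), while the host's log2 difference was -1.87. A 433 nt intron of Ccnd1, the gene of cyclin D1, had 37.2, 26.4 and 27.3 in WT P30 libraries, against 1.91 and 3.62 in WT P1 libraries (adjusted p = 0.000257), with most exon-intron reads on the downstream junction (118, 95 and 96 against 9, 7 and 7 upstream in WT P30). Hes5, a Notch target that keeps progenitors undifferentiated, had PSI 100, 61.1 and 81.8 at its 86 nt intron in WT P30 libraries, against 7.19 and 8.65 in WT P10 libraries (adjusted p = 0.0109). The Hes5 call was lost without WT P10 library 5 (adjusted p = 0.0853) or library 6 (0.101), and an exon of Gm20421 lies on the opposite strand.

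Markers of cycling granule precursors were lower in WT P30 than in every other group. All 4 markers were measured, and their summed level was 69.7 to 146 cRPKM in WT P1, 122 to 156 cRPKM in WT P10 and 0.37 to 1.33 cRPKM in WT P30 libraries. The range was 128 to 155 cRPKM in KO P1 and 106 to 145 cRPKM in KO P10. The markers were low in WT P30, where Kif22 and Kif15 were most retained. Igf2bp3 retention was higher in both WT P10 libraries than in WT P1, and the markers were not lower in WT P10. Igf2bp3 itself had 2.63 and 1.05 cRPKM in WT P10 libraries, against 4.20 and 8.24 cRPKM in WT P1 libraries. In bulk tissue, fewer cells of a type and less RNA per cell cannot be told apart, and the part of either in the retention values was not tested.

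**Figure D2:**
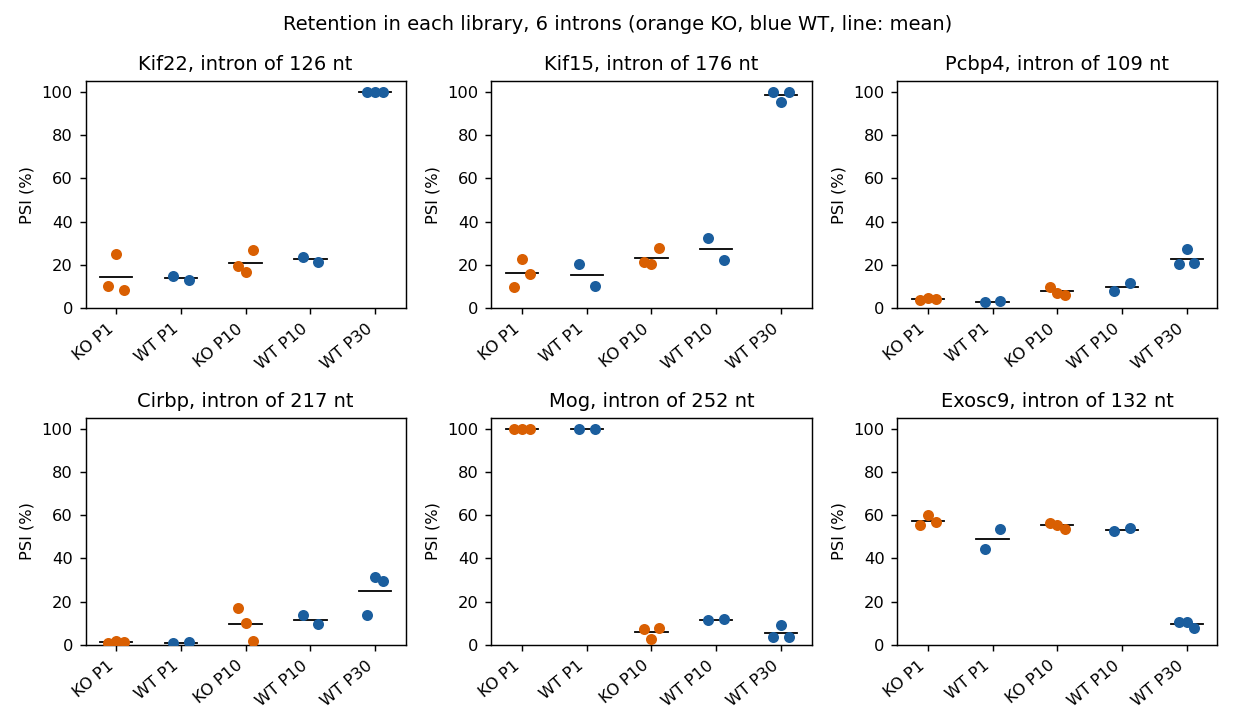
PSI (y axis, %) of 6 introns in every library of the 5 groups (x axis; orange KO, blue WT, line at the mean). The Kif22 and Kif15 introns are near 100 only in WT P30 among these 5 groups, Pcbp4 and Cirbp are highest in WT P30, Mog is at 100 in both P1 groups, and Exosc9 is lowest in WT P30.

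Of 91 introns tested in RNA-binding and processing genes outside the spliceosome and SR lists, 9 rose between WT P30 and WT P1 and 0 fell. Among all events 9% were called, 5.52% higher and 3.48% lower. In the 109 nt intron of Pcbp4, a poly(C)-binding protein, PSI was 20.3, 27.3 and 20.8 in WT P30 libraries, against 3.10 and 3.24 in WT P1 libraries (log2 odds difference 3.11 ± 0.41 SE, adjusted p = 0.000674). WT P10 libraries lay between, at 7.84 and 11.9, and no library of an age overlapped another age within WT. The exon-exon reads of Pcbp4 were 448, 460 and 507 in WT P30 and 328 and 553 in WT P1, and its host level was 85.9, 100 and 90.4 cRPKM in WT P30, against 93.0 and 137 cRPKM in WT P1 (log2 difference -0.29, not called). KO libraries had 9.89, 7.22 and 6.40 at P10 and 4.06, 4.8 and 4.50 at P1. This call held with each library left out in turn.

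Cirbp encodes a cold-inducible RNA-binding protein. Its last intron of 217 nt (mm9 chr10:79633510-79633726, plus strand) had PSI 14, 31.3 and 29.6 in WT P30 libraries, against 0.79 and 1.19 in WT P1 libraries (adjusted p = 0.00394). At P10 it was uneven between libraries, with 17.3, 10.01 and 2.02 in KO and 13.8 and 9.55 in WT. Here the host fell too: Cirbp had 65.1, 53.5 and 51.5 cRPKM in WT P30 libraries, against 158 and 164 cRPKM in WT P1 libraries (log2 difference -1.49, adjusted p = 0.0112).

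Introns of Cstf3, Rbm25 and Snrpa1 were also called higher, and 1 of Srsf1 was not. The last intron of Cstf3, a cleavage stimulation factor subunit, had PSI 70.3, 76.4 and 83.5 in WT P30 libraries, against 41.9 and 43.0 in WT P1 libraries (adjusted p = 0.00306), with no called change of the host (log2 difference -0.33). In Rbm25, a splicing factor, a 380 nt intron had 36.9, 44.4 and 35.4 in WT P30 libraries, against 13.1 and 11.2 in WT P1 libraries (adjusted p = 0.00173), with uneven junction reads in all 13 libraries. Snrpa1, a core U2 snRNP protein, had 8.26, 22.5 and 11.3 against 0.58 and 1.32 at a 210 nt intron, WT P30 against WT P1 (adjusted p = 0.00674). The Snrpa1 call was lost without WT P1 library 8 (adjusted p = 0.0729), and without WT P30 library 2 its difference was under 10 points. A 196 nt intron of Srsf1, an SR protein, had 36.2, 44.5 and 37.8 in WT P30 libraries, against 24.0 and 16.9 in WT P1 libraries, which did not pass (adjusted p = 0.058).

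Of 122 introns tested in chromatin and transcription genes, 8 rose between WT P30 and WT P1 and 3 fell. The 3 calls given here were each lost when 1 WT P1 library was left out. Smarcd3, a subunit of the SWI/SNF remodelling complex, had PSI 16.2, 18.6 and 16.7 at a 106 nt intron in WT P30 libraries, against 0.38 and 2.73 in WT P1 libraries (adjusted p = 0.00494, and 0.0688 without WT P1 library 8). The following intron of Smarcd3, of 212 nt, had 31.8, 39.2 and 34.3 against 3.23 and 11.1 (adjusted p = 0.00942, and 0.113 without that library), and its host fell by 1.28 on the log2 scale. An exon of Chpf2 lies opposite both introns. For Hdac7, a class IIa deacetylase gene, a 433 nt intron had 15.3, 50 and 35.0 in WT P30 libraries, against 0.97 and 0.44 in WT P1 libraries (adjusted p = 0.00609, and 0.0645 without WT P1 library 9).

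The largest fall of a called intron between WT P30 and WT P1 was in a myelin gene. Mog encodes a surface glycoprotein of myelin, and its 252 nt intron 6 of 7 (mm9 chr17:37149029-37149280, minus strand) had PSI 3.52, 9.33 and 3.91 in WT P30 libraries, against 100 and 100 in WT P1 libraries (adjusted p = 7.59e-07). The fall was already present at P10, at 11.5 and 11.9 in WT P10 libraries (adjusted p = 2.99e-05 against WT P1). KO libraries had 7.47, 2.91 and 8.07 at P10, against 100, 100 and 100 at P1 (adjusted p = 8.7e-07). At P1 the exon-exon reads of Mog were 0 of 131 junction reads in KO and 0 of 100 in WT. This allows exon-exon reads to be up to 2.29% and 3.00% of the junction reads. The host had 37.9, 45.0 and 57.6 cRPKM in WT P30 libraries, against 1.88 and 2.09 cRPKM in WT P1 libraries (log2 difference 3.98). In KO P1 libraries Mog was listed at 0, 1.64 and 0 cRPKM, so PSI 100 came there with little or no measured host expression. The junctions of this intron were unevenly read in 2 libraries. The summed level of 4 oligodendrocyte markers was 3363 to 4193 cRPKM in WT P30 and 36.3 to 53.1 cRPKM in WT P1 libraries; its part in the Mog values was not tested.

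Synaptic vesicle and release genes had calls in both directions between WT P30 and WT P1, with 2 introns higher and 4 lower of 29 tested. Both higher ones lie in Doc2a, a calcium sensor of vesicle release. Its 90 nt intron had PSI 100, 73.9 and 82.6 in WT P30 libraries, against 11.1 and 27.8 in WT P1 libraries (adjusted p = 0.00333, and 0.0523 without WT P1 library 8), with 1, 0 and 0 upstream and 11, 17 and 19 downstream reads in WT P30. The 85 nt intron of Doc2a had 100, 94.3 and 100 against 37.3 and 58.6 (adjusted p = 0.00244), the host fell by 2.80 on the log2 scale (adjusted p = 0.0117), and an exon of Ino80e lies opposite both introns. In Bsn, which encodes the presynaptic scaffold Bassoon, a 301 nt intron had PSI 0.67, 1.06 and 0.23 in WT P30 libraries, against 24.6 and 42.0 in WT P1 libraries (adjusted p = 9.94e-05). The exon-exon reads of Bsn were 296, 233 and 219 in WT P30 and 63 and 65 in WT P1, and the host rose by a log2 difference of 0.88 (adjusted p = 0.029). Of 51 introns tested in ion channel and transporter genes 3 fell and 0 rose, and 2 of the 3 belong to Ryr1, a ryanodine receptor of intracellular calcium release. Ryr1 had PSI 0, 0 and 0 at its 96 nt intron in WT P30 libraries, against 71.4 and 72.9 in WT P1 libraries (adjusted p = 0.000598). No exon-intron read was seen among 49 junction reads at P30, which allows exon-intron reads to be up to 6.12% of the junction reads. An exon of Gm26604 lies on the opposite strand of both Ryr1 introns. Ppfia4, a liprin of the active zone, had 11.3, 30.1 and 18.3 against 62.5 and 80.0 at its last intron of 197 nt, WT P30 against WT P1 (adjusted p = 0.0171, and 0.132 without WT P1 library 9), while the host rose by a log2 difference of 1.82. Outside these lists, a 78 nt intron of Yipf2, a Golgi membrane protein gene, had 4, 14.3 and 5.71 in WT P30 libraries, against 78.7 and 46.2 in WT P1 libraries (adjusted p = 0.00712, and 0.0939 without WT P1 library 8). The summed level of 3 Purkinje cell markers was 963 to 1207 cRPKM in WT P30 and 98.4 to 194 cRPKM in WT P1 libraries, and that of 4 granule neuron markers 818 to 939 cRPKM and 197 to 387 cRPKM; their part in these values was not tested.

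Several of the strongest changes lay where a gene on the opposite strand overlaps the intron, and the files do not state that reads were counted by strand. The last intron of Exosc9, an exosome subunit, had PSI 10.6, 10.7 and 7.80 in WT P30 libraries, against 44.2 and 53.4 in WT P1 libraries (adjusted p = 9.65e-05), and all 8 P10 and KO libraries lay between 52.6 and 60.0. Ccna2, the gene of cyclin A2, has an exon opposite it and had 0.34, 1.87 and 0.63 cRPKM in WT P30 libraries, against 31.1 and 53.3 cRPKM in WT P1 libraries (log2 difference -4.50, adjusted p = 4.13e-06). Exosc9 itself was not called (log2 difference -0.31). The last intron of Ddx49, an RNA helicase gene, had 91.6, 91.9 and 90.1 in WT P30 libraries, against 35.4 and 54.4 in WT P1 libraries (adjusted p = 0.000152). Junctions were unevenly read in 12 libraries for this Ddx49 intron and in 4 for the Exosc9 intron. Homer3, a postsynaptic scaffold gene opposite to Ddx49, had 142, 125 and 131 cRPKM in WT P30 libraries, against 7.17 and 17.3 cRPKM in WT P1 libraries (log2 difference 3.45, adjusted p = 1.41e-05). In both pairs the retention value moved the way the opposite gene moved, and reads of the partners cannot be told apart. Doc2a went the other way, as both its introns rose between WT P1 and WT P30. Ino80e, opposite to Doc2a, had 9.71, 8.25 and 10.2 cRPKM in WT P30 libraries, against 12.2 and 24.3 cRPKM in WT P1 libraries. How many pairs go each way is not given here, and the part of opposite-strand reads was not tested. Over the introns matched to GENCODE, an opposite-strand exon overlapped 13.1% of those called higher (36), 21.7% of those called lower (36) and 6.63% of all those tested between WT P30 and WT P1.

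Uneven junction reads marked other calls. A 104 nt intron of Rpl10, a ribosomal protein gene, had PSI 45.1, 47.0 and 46.8 in WT P30 libraries, against 80.0 and 83.1 in WT P1 libraries (adjusted p = 0.00507, and 0.0503 without WT P1 library 9). Its exon-intron reads in WT P30 were 1, 0 and 0 upstream and 111, 93 and 123 downstream. The first intron of Shank3, a postsynaptic scaffold gene, had 63.6, 50.6 and 42.3 against 22.0 and 19.0 (adjusted p = 0.0183, 0.0868 without WT P1 library 8 and 0.11 without library 9), with 0, 3 and 0 upstream and 49, 42 and 22 downstream reads in WT P30. Reads on 1 side of an intron do not show that the whole intron is kept.

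The shorter intervals gave fewer calls. Between WT P30 and WT P10, 92 of 7066 introns were called, 65 higher and 27 lower, where 2.39% of all events were called, 1.67% higher and 0.721% lower. The count was 21 without WT P10 library 6, 34 without WT P10 library 5 and 44 without WT P30 library 3. Between WT P10 and WT P1, 12 of 6803 were called (0.395% of all events, 0.203% higher and 0.192% lower), 7 higher and 5 lower. With log odds centred on each library's median intron, 15 were called, 7 higher and 8 lower. Without WT P10 library 5 or 6 only 1 of these calls remained, and without WT P1 library 8 2 were made. Between KO P10 and KO P1, 28 of 7254 were called (0.624% of all events, 0.332% higher and 0.292% lower), 15 higher and 13 lower, and after the same centring 34, 14 higher and 20 lower. That count was 9 without KO P10 library 10, 10 without KO P1 library 13, 11 without KO P10 library 11, 14 without KO P1 library 15 and 15 without KO P1 library 14.

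A change of the first 10 days seen in both genotypes was that of Phpt1, which encodes a phosphohistidine phosphatase. Its 488 nt intron (mm9 chr2:25429220-25429707, minus strand) had PSI 5.64 and 5.30 in WT P1, 24.7 and 32.5 in WT P10 and 32.1, 41.6 and 32.6 in WT P30 libraries (adjusted p = 0.0192 for P10 against P1). In KO it had 30.1, 36.2 and 22.4 at P10, against 7.14, 5.76 and 6.18 at P1 (adjusted p = 0.00474). The WT call at P10 was lost with any of its 4 libraries left out, at adjusted p of 0.126 and 0.0893 without WT P1 libraries 8 and 9 and of 0.108 and 0.151 without WT P10 libraries 5 and 6. In Gtpbp6, a GTP-binding protein gene, 2 introns were lower at P10: the 89 nt intron had 20 and 23.8 in WT P10 libraries, against 63.6 and 57.6 in WT P1 libraries (adjusted p = 0.019), and the 100 nt intron 7.69 and 6.02 against 29.0 and 36.7 (adjusted p = 0.0452). Both Gtpbp6 calls were lost with any of the 4 libraries left out (adjusted p of 0.0651 without WT P1 library 9 and 0.216 without WT P10 library 5 at the 89 nt intron, the lowest and the highest), and an exon of Plcxd1 lies opposite.

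Grouped by host gene function, the calls between WT P30 and WT P1 can be set beside the 6.80% called among all retained short introns tested and the 9% among all events (5.52% higher and 3.48% lower). Of 48 introns in cell cycle, DNA replication and repair genes, 9 rose and 0 fell, with a median PSI difference of 3.62 points. In other RNA-binding and processing genes 9 of 91 rose and 0 fell (median 3.50), in cytoskeleton and motor genes 8 of 42 rose and 0 fell (median 0.507), and in chromatin and transcription genes 8 of 122 rose and 3 fell (median 2.85). The 8 cytoskeletal calls were 6 introns of Kif22 and 2 of Kif20a, both kinesins of cell division, and Kif15 was not on the list. Of 52 introns in hnRNP and core spliceosome genes 4 rose and 0 fell (median 1.39), and of 21 in genes for SR proteins and their kinases 1 rose and 0 fell (median 0.690). Ion channel and transporter genes had 0 of 51 higher and 3 lower (median -1.75), 2 of Ryr1 and 1 of Kcnt1, a share below that of all retained short introns, and synaptic vesicle genes 2 of 29 higher and 4 lower (median 1.05). Postsynaptic genes had 1 higher and 1 lower of 25 (median 0.797), ribosome and translation genes 1 and 1 of 30 (median 0.542), and myelin and glial genes 0 and 1 of 5 (median -7.30). Genes of mitochondria (26 tested, median 0.152) and of protein turnover (35 tested, median 0.558) had none. Over all retained short introns tested the median difference was 0.688 points; these are counts, and no test compares a list with other genes.

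**Figure D3:**
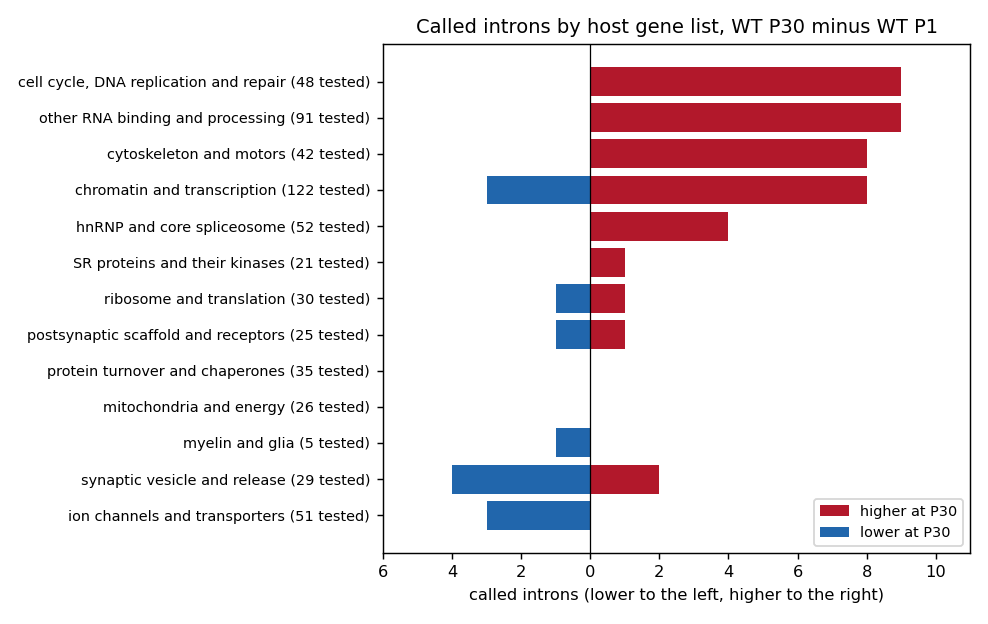
Number of introns called between WT P30 and WT P1 (x axis; higher at P30 to the right in red, lower to the left in blue) by list of host genes (y axis, with the number of introns tested). Cell cycle, DNA replication and repair genes have 9 higher and 0 lower of 48, ion channels and transporters 0 higher and 3 lower of 51.

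Between WT P30 and WT P1, hosts were more often called lower than higher where retention rose, and more often higher where it fell. Of 3545 host genes, 794 were called between WT P30 and WT P1, 326 higher and 468 lower, while 25.4% of all genes tested were called, 9.66% higher and 15.8% lower. Of the 277 introns that rose, 272 had a tested host, which was called lower in 85 and higher in 8, with a median log2 difference of -0.56. Of the 169 that fell, 162 had a tested host, called higher in 43 and lower in 9, with a median of 0.61. Hosts of introns not called had a median of -0.06. Counts and medians given for called introns are over introns, so a gene with several of them enters more than once. The 277 introns lay in 224 genes and the 169 in 136. Between WT P30 and WT P10 the 65 higher introns lay in 48 genes. A tested host was present for 63 of these introns, called lower in 31 and higher in 0, with a median of -1.40. For the 27 lower introns the host was called higher in 2 and lower in 0, with a median of only 0.08. In that comparison 445 hosts were called in all, 155 higher and 290 lower, and 14.7% of all genes, 5.02% higher and 9.73% lower. Over 6453 introns the rank correlation of the 2 differences, P30 against P1, was -0.26, and over 12943 introns longer than 500 nt it was -0.25; introns of a gene share its host value and exon-exon reads enter both measures. Between WT P10 and WT P1, 113 hosts were called (55 higher and 58 lower; 4.05% of all genes, 2.2% higher and 1.85% lower). The 7 higher introns of that comparison had a median host difference of -0.21, with none called. Among the 5 lower introns, 4 had a tested host, called higher in 1, with a median of -0.87. Both Gtpbp6 introns are among these 4, so that host enters the median more than once. Gtpbp6 was listed at 0 and 9.15 cRPKM in WT P10 libraries 5 and 6. Between KO P10 and KO P1 314 hosts were called (158 higher and 156 lower; 10.2% of all genes, 5.58% higher and 4.59% lower), and the host medians were -0.28 for the 15 higher introns and 1.26 for the 13 lower ones.

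**Figure D4:**
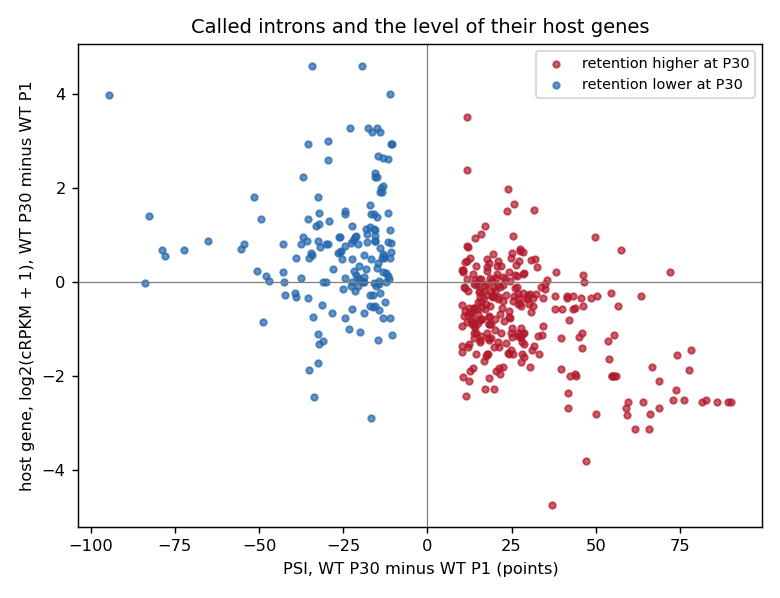
Log2 difference of host gene level, log2(cRPKM + 1), WT P30 minus WT P1 (y axis), against the PSI difference in points (x axis) for called introns whose host was tested; red rose and blue fell at P30. The median over red points is -0.56 and over blue points 0.61, and a gene with several called introns gives several points.

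PSI can move through either kind of junction read, so both were divided by the library's exon-exon reads over all introns (17587533 to 29719258 reads). Of the 277 introns that rose between WT P30 and WT P1, the exon-exon reads moved more in 155 and the exon-intron reads in 122, with median log2 changes of -0.77 and 0.62. Of the 169 that fell, the exon-exon reads moved more in 87 and the exon-intron reads in 82, with medians of 0.68 and -0.51. The later interval differed: of the 65 introns higher in WT P30 than in WT P10, 56 moved more in the exon-exon reads, and of the 27 lower ones 21 moved more in the exon-intron reads. Between WT P10 and WT P1, 6 of the 7 higher introns moved more in the exon-intron reads. Kif22 belongs to the introns led by exon-exon reads and Pcbp4 to those led by exon-intron reads.

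**Figure D5:**
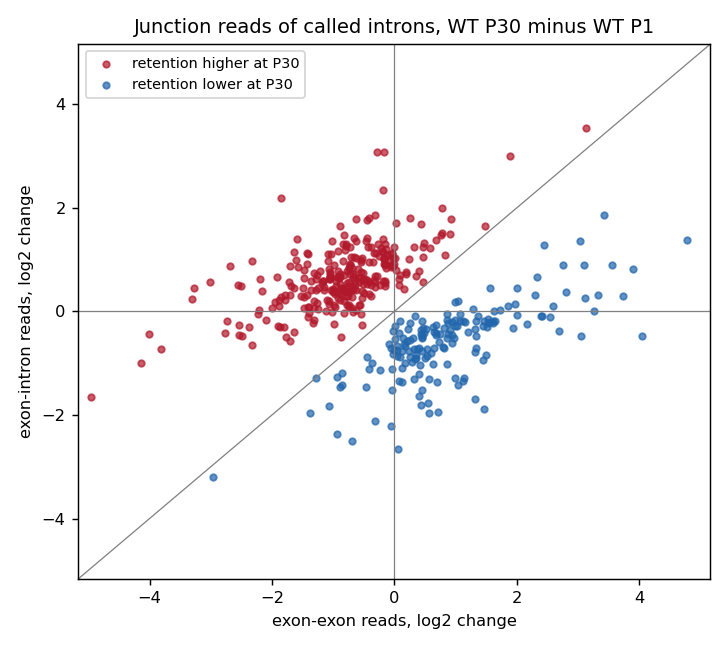
Log2 change of exon-intron reads (y axis) against that of exon-exon reads (x axis), each scaled to the library's exon-exon reads over all introns, WT P30 minus WT P1, for the 446 called introns; the diagonal marks equal change. Red points (retention higher at P30) lie above the diagonal and blue points (lower) below it; red medians are -0.77 for exon-exon and 0.62 for exon-intron reads.

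The annotation and the sequence of the introns were described last. Of the 8299 introns, 99.3% (8244) were matched to GENCODE by gene, strand, length and flanking exons. A transcript that keeps the intron was annotated for 31.0% of them (2558), against 8.0% of the short introns below PSI 5 and 6.5% of retained introns over 500 nt. Coding exons lay on both sides of 94.6%, against 98.5% of the short introns below PSI 5, and 11.5% were the last intron of their transcript, against 8.01%. An opposite-strand exon overlapped 6.17%, against 1.60% of the short introns below PSI 5 and 7.21% of retained introns over 500 nt.

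Sequence could be read only for introns with an annotated retaining transcript. Of 2558 such introns 98.7% had GT and AG ends. The letters TAAA, an A/U-rich core of the kind bound by Sam68, were searched on the transcribed strand, with overlaps to other motifs allowed and, for this count, in introns with coding exons on both sides. They were found in 11.3% of 727 retained introns of up to 100 nt, against 15.5% of 640 introns below PSI 5, in 22.0% of 722 against 26% of 573 at over 100 to 200 nt, and in 50.1% of 935 against 59.2% of 639 at over 200 nt. On the opposite strand TAAA was found in 14.3%, 24.4% and 57.9% of retained introns in these length classes, against 20.8%, 33.3% and 65.3%. Median GC content was 58.2%, 55.9% and 52.5% in retained introns, against 57.3%, 54.5% and 50.5% in introns below PSI 5. Stop codons in all 3 frames were present in 28.6%, 58.3% and 90.9% of retained introns in these length classes, against 29.5%, 60.6% and 93.0% of introns below PSI 5. The length was divisible by 3 in 33.2% of the 8299 introns, against 32.6% of the short introns below PSI 5. In each length class the shares with TAAA, on either strand, and with stop codons were lower in the retained introns, and GC content was higher. These differences were not tested.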

How the data were processed

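RNA of cerebella was sequenced in 13 libraries using, in modified form, a stranded mRNA kit, per the labels' protocols, and reads were checked with FastQC, trimmed with Trimmomatic and referred to mm9, per the submitters' processing notes (versions not given there). The authors deposited PSI values in percent with the junction read counts behind them, and cRPKM values, an RPKM corrected for mappable length. No source used here names the program that made these values or says whether it counted by strand. Deposited PSI equals the share of retained reads among the deposited inclusion and exclusion reads, which need not be whole, to within 1 point in every library of all 8299 introns; these reads entered the fit. The exon-intron and exon-exon reads printed are the plain counts. Their mean per junction gives a PSI more than 1 point off the deposited one in at least 1 library for 899 introns, among them those printed for Mog, Taz, Mettl5 and Rpl10, the 91 nt intron of Kif22 and the 106 nt intron of Smarcd3.

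From these values, log2 odds of retention were computed with 0.5 reads added on each side. Events needed 10 or more reads in at least 4 libraries and in 2 libraries of each group compared, and a mean PSI of 5 to 95. Alternative splice sites with no added length were left out. Shares given for all events refer to the events that met these conditions. All events were fitted together in 1 limma model of the 5 groups (limma 3.58.1 in R 4.3.3, empirical Bayes with trend), with Benjamini-Hochberg adjustment over all tested events. Calls needed an adjusted p-value below 0.05 and 10 PSI points, and, beyond the original plan, the same sign of both differences. Genes with a group mean of 1 cRPKM or more were fitted on log2(cRPKM + 1), a scale that understates changes of low genes. The procedure was tested on simulated data, in which it recovered few changes of moderate size at the spread of the real libraries. Tables were handled with the data.table package (1.17.8), Python 3.11.15 and pandas 2.3.3.

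Introns were matched to GENCODE M21 (GRCm38) by gene, strand, length and flanking exon lengths, not by coordinates. The introns and gene lists were chosen with earlier results of these data known. Named introns are the largest called changes per comparison, the smallest p-values between KO and WT, the highest levels, the smallest p-values per gene list, those at the edges of the rule, and the 5 host genes with most retained introns, and the text gives a selection of these. Alternatives covered the reads added, the read minimum, weights, the groups fitted, each library left out, centring, uneven junctions and opposite-strand overlaps.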

Additional observations from a re-analysis of the deposited data

Results flagged for a closer look

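In 3 introns of the report, KO and WT libraries lay apart in opposite directions at P10 and P1. Over all events tested, library values of the genotypes did not overlap in 18.2% at P10 and 19.3% at P1. The introns of Zfhx2 and Gtpbp6 were named for their change between WT P10 and WT P1, a choice that favours extreme WT values. For the 447 nt intron of Zfhx2, KO minus WT was -11.9 PSI points at P10 and 27.6 points at P1, so that the difference changed by -39.5 points (-39.4633); the group means were 79.9 in KO P10 and 91.8 in WT P10, and 63.7 in KO P1 and 36.1 in WT P1. For the 89 nt intron of Gtpbp6 it was 8.40 points at P10 and -11.4 at P1, a change of 19.8 points (19.8417), with means of 30.3 in KO P10 and 21.9 in WT P10, and 49.2 in KO P1 and 60.6 in WT P1. For the 161 nt intron of Cdc25b, the gene of a cell cycle phosphatase, it was 2.79 points at P10 and -5.30 at P1, a change of 8.09 points (8.0883), with means of 16.96 in KO P10 and 14.2 in WT P10, and 13.6 in KO P1 and 18.9 in WT P1. The limma test of the genotype difference between the ages gave unadjusted p of 0.00838, 0.0232 and 0.136 and adjusted p of 1 in all 3, so none passed. Opposite-strand exons overlap the introns of Zfhx2 (Gm20687 and Zfhx2os) and Gtpbp6 (Plcxd1). Groups of 2 and 3 libraries allowed no test for single outlying libraries.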

How the results depend on the processing

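Of 118 single-intron results, 50 kept their direction and their side of the threshold under every alternative. Over 1496 values from the alternatives, 267 were no longer called (166 with a library left out), 6 were newly called and 0 changed direction. With a library left out, the calls ranged from 0 to 1 for KO P1 against WT P1, 1 to 10 for WT P10 against WT P1, 21 to 63 for WT P30 against WT P10, 160 to 453 for WT P30 against WT P1 and 9 to 38 for KO P10 against KO P1; calls on the gene lists ranged from 25 to 65 against 56. Host gene calls in the same order of comparisons ranged from 0 to 12, 33 to 85, 236 to 307, 444 to 576 and 184 to 413, and from 0 to 1 for KO P10 against WT P10. Fits of only the groups compared gave 1, 25, 268 and 5 introns for WT P10 against P1, WT P30 against P10, WT P30 against P1 and KO P10 against P1, 37 on the lists, and 905, 1507 and 67 hosts for the last 3. Without unevenly read introns these counts were 6, 51, 295 and 11. Weighting by reads gave 20 for WT P10 against P1, 144 for WT P30 against P10 and 1 for KO P10 against WT P10. WT P10 against P1 gave 7 without opposite-strand overlaps and 7 with events at mean PSI 1 to 99. A pseudocount of 0.1 called 1 host for KO P1 against WT P1. The cause of these differences was not tested, apart from the fewer libraries or introns that some alternatives hold. Centring and leaving out uneven or overlapped introns were chosen after seeing the data; before centring, the median log2 odds difference of the introns was 0.14 in WT P10 against P1, -0.11 in WT P30 against P10 and 0.15 in KO P10 against P1. No paired analysis was possible because the library numbers in the labels are shared by no 2 groups. Depth limits introns with 10 to 20 reads, where a single read moves PSI by several points.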
